A study of Rattus norvegicus with 30 samples.

Results

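The collagen genes of the rat kidney were followed across the cortex (Cx) and the outer medulla (OM) and across a change in dietary salt. Members were the protein coding rows of the deposited gene table whose symbol has the form of a collagen chain (Col, type number, a, chain number) and that had at least 10 counts in at least 5 of the 30 libraries. Of 32545 genes in the table, 43 protein coding rows carried such a symbol and 36 passed the count filter. Of these, 6 were of the fibrillar types I, III and V, 7 were of the basement membrane types IV, XV and XVIII, and 23 were other collagens. The others hold 5 genes of further fibril-forming types (*Col2a1*, *Col11a1*, *Col11a2*, *Col24a1* and *Col27a1*), which the fibrillar class here leaves out. The 7 rows that did not pass were *Col6a4*, *Col9a3*, *Col10a1*, *Col25a1*, *Col26a1* and both rows of *Col23a1*. Next to the limit, *Col26a1* reached 10 counts in 4 libraries and was left out, and *Col2a1* reached it in 6 and was kept. *Col6a3* is annotated as a processed transcript and was therefore no member, and *Col4a3* and *Col21a1* are not analysed here.

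The libraries came from the right kidney of male Sprague-Dawley rats, all given the purified AIN-76A diet. In the low salt groups (Cx LS and OM LS) the diet held 0.4% NaCl. In the high salt groups it held 4.0% NaCl for 14 d (Cx HS14, OM HS14) or 21 d (Cx HS21, OM HS21). Each of the 6 groups had 5 libraries, numbered as separate samples, and the labels give no genotype, drug or age. Per the study, the rats that gave the tissue were not those fitted with a flow probe for the recordings of blood flow. Per the study's methods both tissues were cut from the same 5 kidneys of a group, so Cx and OM are not independent sets of rats. The labels do not tie the numbers of the libraries to single kidneys. In 13 of 15 cases, however, the Cx library correlated best with the OM library of its own number. The main fits did not pair them. Both HS time points of a tissue were compared with the same LS libraries. Total counts per library ran from 12748841 to 21842843 except in OM HS14 replicate 10, which had 5408126.

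Collagens are triple helices of alpha chains, and the type is set by the genes that supply them. The fibrillar collagens form the banded fibrils of the interstitium and are made in the kidney mainly by fibroblasts and pericytes. Type IV collagen forms the sheet-like network of basement membranes, with a set of chains common to nearly all of them. Podocytes make another set for the mature glomerular membrane. Whole tissue does not show which cells carried the mRNA of either set here. Types XV and XVIII are carried on basement membranes and release fragments that act on vessels. The diet comparisons ask how the mRNA of each class stood after 14 and 21 d on the HS diet, and the tissue comparison asks how Cx and OM differed on the LS diet.

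Tissue identity was read from marker genes, as CPM (counts divided by the library size that edgeR's TMM factors give). The summed level of 3 cortical tubule markers was 6281 to 9094 CPM in the Cx libraries and 141 to 1513 CPM in 14 of the 15 OM libraries. In OM LS replicate 2 it was 4806 CPM, between the tissues. OM LS replicate 5 lay at the other end, with 141 CPM. That library also had the lowest proximal tubule markers of its group (557 CPM, with a group median of 4287) and the highest collecting duct markers (2441 CPM, with a group median of 1091). For the genes described most fully in OM, and where a call named here changes, values without OM LS replicate 2 are also given. Counts without OM LS replicate 5 are given for the family. In whole tissue, fewer cells of a type and less mRNA per cell cannot be told apart.

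Basement membrane genes held most of the collagen mRNA in both tissues, 68.9 ± 2.3% of the summed FPKM of the family in Cx LS and 68.7 ± 3.4% in OM LS (SD, n = 5). Levels between genes were compared as FPKM, which divides by gene length. In Cx LS the genes stood in the order *Col4a4* (132 ± 15 FPKM, SD, n = 5), *Col4a1* (115 ± 8.6), *Col4a2* (72.4 ± 5.5), *Col18a1* (38.3 ± 4.3), *Col3a1* (27.8 ± 5.1), *Col27a1* (24.4 ± 4.6) and *Col4a5* (22.2 ± 1.4). The libraries of *Col4a4* and *Col4a1* overlapped, as did those of *Col3a1*, *Col27a1* and *Col4a5*, and the other neighbours in this order did not. In OM LS, *Col18a1* (84.9 ± 16 FPKM) stood first, ahead of *Col4a1* (68.5 ± 23), *Col4a4* (68.1 ± 18) and *Col4a2* (58.2 ± 17), and the libraries of all 4 genes overlapped. Of the 36 genes, 13 had a mean of 10 FPKM or more over the 30 libraries and 13 had a mean under 1 FPKM, among them *Col5a3* and *Col4a6*. The fibrillar genes other than *Col3a1* had 14.2 ± 3.7 FPKM (*Col1a1*), 11.1 ± 3.8 (*Col1a2*), 7.84 ± 0.67 (*Col5a2*), 6.22 ± 1 (*Col5a1*) and 0.359 ± 0.12 (*Col5a3*) in Cx LS.

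Type IV genes lie in pairs that point away from each other, and the stretch between their starts is shared by both. The promoters of 3 genes are shown for this reason, a basement membrane gene with its partner close by, the type IV gene with the widest diet difference and a fibrillar gene. Each runs from 250 bases before to 50 bases after the RefSeq start on GRCr8, written 5′ to 3′ on the strand of the gene. *Col4a1* is at chr16:84885347-84885646 on the plus strand, *Col4a4* at chr9:91323528-91323827 on the minus strand and *Col1a2* at chr4:33518307-33518606 on the plus strand. Capitals mark 3 motifs searched on both strands, whose letters follow below the sequences.
Col4a1: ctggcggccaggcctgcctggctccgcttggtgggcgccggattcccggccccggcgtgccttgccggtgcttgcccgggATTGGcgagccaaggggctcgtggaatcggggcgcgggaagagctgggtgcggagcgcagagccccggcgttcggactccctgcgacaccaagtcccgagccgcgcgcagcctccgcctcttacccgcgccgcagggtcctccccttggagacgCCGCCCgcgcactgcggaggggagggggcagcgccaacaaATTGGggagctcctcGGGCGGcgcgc
Col4a4: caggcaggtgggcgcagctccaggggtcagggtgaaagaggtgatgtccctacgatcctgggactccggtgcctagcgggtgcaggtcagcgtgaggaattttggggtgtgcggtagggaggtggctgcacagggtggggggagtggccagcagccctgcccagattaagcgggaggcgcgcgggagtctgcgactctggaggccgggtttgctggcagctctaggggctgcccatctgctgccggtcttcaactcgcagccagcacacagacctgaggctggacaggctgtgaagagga
Col1a2: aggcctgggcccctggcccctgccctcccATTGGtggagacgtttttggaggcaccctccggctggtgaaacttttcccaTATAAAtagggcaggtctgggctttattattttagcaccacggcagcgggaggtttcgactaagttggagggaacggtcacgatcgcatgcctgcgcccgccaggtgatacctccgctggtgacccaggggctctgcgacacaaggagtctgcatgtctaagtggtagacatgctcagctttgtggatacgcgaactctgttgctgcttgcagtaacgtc
The first motif was CCAAT. It occurred in 9 of the 29 members with a window and in 37.49% of all 33469 windows. The second motif was GGGCGG, found in 17 of the 29 members and in 33.06% of windows. The third motif, TATAAA, was found in 3 of the 29 members and in 14.22% of windows. The *Col4a1* window had a GC content of 75% and held the first and the second motif on 2 places each, the *Col4a4* window had 65.3% and held none of the 3, and the *Col1a2* window had 57% and held the first and the third motif once each. Between the starts of *Col4a1* and *Col4a2* lay 76 bases, so that 176 bases of the *Col4a1* window are also in the *Col4a2* window on the opposite strand. Between the starts of *Col4a3* and *Col4a4* lay 412 bases and between those of *Col4a5* and *Col4a6* 1414. These matches describe letters and say nothing of which factor binds.

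After 21 d of HS, 4 of the 5 type IV genes of Cx were lower than on LS. *Col4a4*, a chain of the mature glomerular basement membrane (ENSRNOG00000014851, Rnor_6.0 chromosome 9, 88232455 to 88357182), measured 1626, 1577, 1472, 1330 and 1244 CPM in the Cx LS libraries. At HS21 it measured 829, 796, 641, 620 and 597 CPM. All 5 HS21 libraries were below all 5 LS libraries, and the level fell to 0.48 of LS (log2 ratio −1.06 ± 0.11 SE, adjusted *P* = 4.91e-05, edgeR quasi-likelihood F-test with Benjamini-Hochberg adjustment over 14299 genes). *Col4a1* (ENSRNOG00000016281, chromosome 16, 83522162 to 83632153), which with *Col4a2* supplies the chains found in nearly all basement membranes, measured 751, 679, 836, 787 and 743 CPM on LS and 390, 423, 450, 529 and 521 CPM at HS21. The groups were again apart, with a log2 ratio of −0.72 ± 0.09 (adjusted *P* = 0.000134). Its partner *Col4a2* (ENSRNOG00000023972, chromosome 16, 83387364 to 83438561) went from 352, 336, 388, 387 and 329 CPM to 206, 225, 259, 298 and 272 CPM, a log2 ratio of −0.51 ± 0.10 (adjusted *P* = 0.00153). *Col4a5* (ENSRNOG00000018951, chromosome X, 112769645 to 112983685), the X-linked chain that joins *Col4a4* in the glomerular network, fell from 131 to 154 CPM on LS to 107 to 127 CPM at HS21 (log2 ratio −0.30 ± 0.07, adjusted *P* = 0.00378).

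Of the 7 basement membrane genes, 4 were lower and 0 higher, beside 20.5% of all tested genes that were lower and 18.9% that were higher in this comparison. The count of higher genes was also 0 at an unadjusted *P* under 0.05 and by DESeq2. Over the whole family the share was not above the background. Of 33 collagen genes tested, 5 were lower (15.2%) and 4 higher (12.1%). Groups that did not overlap were found in 4 members below LS, the 4 type IV genes above, and in 3 members above LS, beside 14.6% and 12% of all genes. The other 3 basement membrane genes did not pass the test. *Col18a1* measured 170 to 223 CPM on LS and 169 to 212 CPM at HS21 (−0.06 ± 0.08), *Col15a1* 2.82 to 6.96 and 3.33 to 5.47 CPM (−0.11 ± 0.26), and *Col4a6* 1.53 to 3.93 and 1.5 to 3.5 CPM (0.16 ± 0.28). With total counts as library sizes the family had 7 genes higher and 5 lower, and all genes had 4401 higher and 1653 lower, where TMM gave 2702 and 2936.

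**Figure D1:**
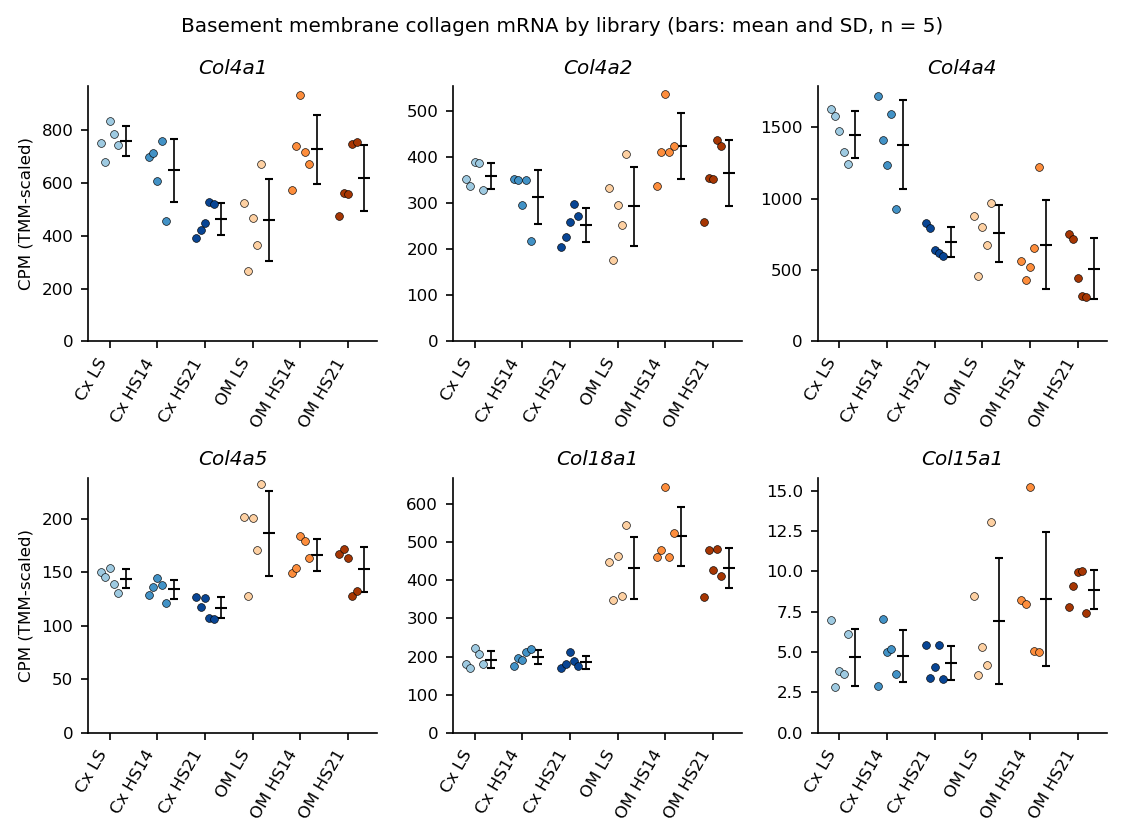
CPM of 6 basement membrane collagen genes in each of the 30 libraries, by tissue and diet group (x axis), with points for libraries and bars for mean and SD (n = 5). *Col4a1*, *Col4a2*, *Col4a4* and *Col4a5* of Cx HS21 lie below all Cx LS libraries, and *Col18a1* of OM (349 CPM or more) lies above all Cx libraries (223 CPM or less).

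The fibrillar genes of Cx did not pass the edgeR test at HS21, 0 of 6 in either direction, nor did any by DESeq2. The count at an unadjusted *P* under 0.05 was also 0 of 6, where 23.5% of all genes were higher and 24.7% lower. Their log2 ratios ran from −0.37 to 0.06 with a median of −0.01, and the median over all genes was 0.00461. *Col1a1*, the main chain of type I collagen (ENSRNOG00000003897, chromosome 10, 82745801 to 82762789), measured 96.4, 54, 101, 64.6 and 97.1 CPM on LS and 67.6, 66.9, 72.1, 100 and 83.8 CPM at HS21. The groups overlapped (log2 ratio −0.08 ± 0.18). *Col3a1* (ENSRNOG00000003357, chromosome 9, 52023295 to 52059217), the chain of type III collagen, measured 105 to 160 CPM on LS and 103 to 163 CPM at HS21 (log2 ratio −0.03 ± 0.14). *Col1a2* (ENSRNOG00000011292, chromosome 4, 31534225 to 31569151), the second chain of type I, spread more widely, with 29.5 to 76.3 CPM on LS, 16.1 to 59.6 CPM at HS21 and a log2 ratio of −0.37 ± 0.31. The type V genes, whose chains regulate fibril width, had log2 ratios of 0.04 ± 0.14 (*Col5a1*), 0.06 ± 0.11 (*Col5a2*) and 0.01 ± 0.28 (*Col5a3*).

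Of the 20 other collagens tested in Cx at HS21, 4 were higher (20%) and 1 lower (5%), beside 18.9% and 20.5% of all genes. *Col11a2*, a minor chain of cartilage fibrils, measured 12.8, 12.6, 14.3, 8.6 and 8.41 CPM on LS and 17.9, 25.8, 24.2, 14.5 and 26.2 CPM at HS21, with no overlap (log2 ratio 0.94 ± 0.20, adjusted *P* = 0.00325). *Col16a1*, a fibril-associated collagen, rose from 9.65 to 11.9 CPM to 12.3 to 15.7 CPM, also without overlap (0.44 ± 0.10, adjusted *P* = 0.00419). *Col24a1* measured 0.835 to 2.14 CPM on LS and 1.96 to 3.05 CPM at HS21 (0.88 ± 0.26, adjusted *P* = 0.018). *Col20a1* rose from 1.39 to 1.73 to 2 to 2.72 CPM (0.54 ± 0.17, adjusted *P* = 0.0231). All 4 are low in abundance, and *Col20a1* did not pass without Cx LS replicate 2, Cx LS replicate 3 or Cx HS21 replicate 12. *Col6a6*, a chain of the beaded filament type VI, fell by 0.89 ± 0.26 on the log2 scale (adjusted *P* = 0.0193) from 83.7, 48.6, 59.8, 99.4 and 83 CPM to 47.1, 17.8, 47.3, 52.5 and 38.1 CPM. Its groups overlapped, and without Cx LS replicate 4 its change did not pass the test. The more abundant type VI gene *Col6a1* did not pass (54.1 ± 4 CPM on LS, 65.8 ± 18 at HS21, SD, n = 5).

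Marker lists of cell types are given for the same comparison, beside the 18.9% of all genes that were higher and the 20.5% that were lower. The podocyte markers summed to 670 to 760 CPM on LS and 833 to 1008 CPM at HS21, and 5 of 6 were higher. The 7 proximal tubule markers summed to 17607 to 19406 and 10083 to 13507 CPM, all 7 lower. The leukocyte markers summed to 124 to 155 and 252 to 721 CPM, 8 of 8 tested higher. Fibroblast markers summed to 142 to 193 CPM on LS and 140 to 223 CPM at HS21, with 2 of 5 tested higher, and of the endothelial markers 2 of 8 were higher. The collecting duct markers summed to 608 to 682 and 877 to 1477 CPM, 3 of 4 higher, and the thick ascending limb markers to 1148 to 1784 and 2006 to 2759 CPM, both higher. Mesangial markers summed to 62.4 to 73 CPM on LS and 68.6 to 91.3 CPM at HS21, 2 of 4 higher, and of 7 pericyte and smooth muscle markers 1 was higher and 1 lower. No listed marker was at 0 in all libraries of a group. The part of cell makeup in the collagen values was not tested.

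At HS14 none of 32 tested collagen genes in Cx passed the edgeR test in either direction, beside 1.14% of all genes higher and 1.18% lower. At an unadjusted *P* under 0.05 the counts were 0 higher and 1 lower, beside 9.05% and 8.31% of all genes, and DESeq2's Wald test also called 0. *Col4a4* measured 1719, 1412, 1238, 1597 and 929 CPM in Cx HS14 and *Col4a1* 700, 715, 609, 760 and 457 CPM, with replicate 10 lowest in both. Against the LS libraries the log2 ratios were −0.08 ± 0.14 for *Col4a4*, −0.24 ± 0.12 for *Col4a1*, −0.20 ± 0.12 for *Col4a2* and −0.11 ± 0.06 for *Col4a5*. The 1 lower member was *Col5a3* (−0.56 ± 0.25, adjusted *P* = 0.282 by edgeR).

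The step from HS14 to HS21 in Cx was tested directly. *Col4a4* was lower at HS21 by 0.98 ± 0.16 on the log2 scale (adjusted *P* = 0.00628, groups apart) and *Col4a1* by 0.48 ± 0.13 (adjusted *P* = 0.0334, groups overlapping). *Col16a1* (0.58 ± 0.15, adjusted *P* = 0.0236) and *Col11a2* (0.80 ± 0.24, adjusted *P* = 0.0416) were higher. That makes 2 of 34 collagen genes in each direction, beside 6.5% of all genes higher and 9.69% lower. Groups did not overlap in 1 member above and 1 below, beside 3.56% and 6.1% of all genes. Single libraries decided part of these calls. Leaving out 1 library at a time, 1 to 5 members were lower and 1 to 3 higher, with 5 and 3 without Cx HS14 replicate 10. *Col4a4* stayed called in 10 of the 10 fits. *Col4a1* stayed called in 4 and was lost without any 1 of Cx HS14 replicates 6 to 9 or Cx HS21 replicates 11 and 12. *Col16a1* stayed called in 7 and was lost without Cx HS14 replicate 9 or Cx HS21 replicate 14 or 15, and *Col11a2* stayed called in 3. With total counts as library sizes the members were 2 higher and 1 lower, and all genes 2084 higher and 644 lower, where TMM gave 935 and 1395.

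**Figure D2:**
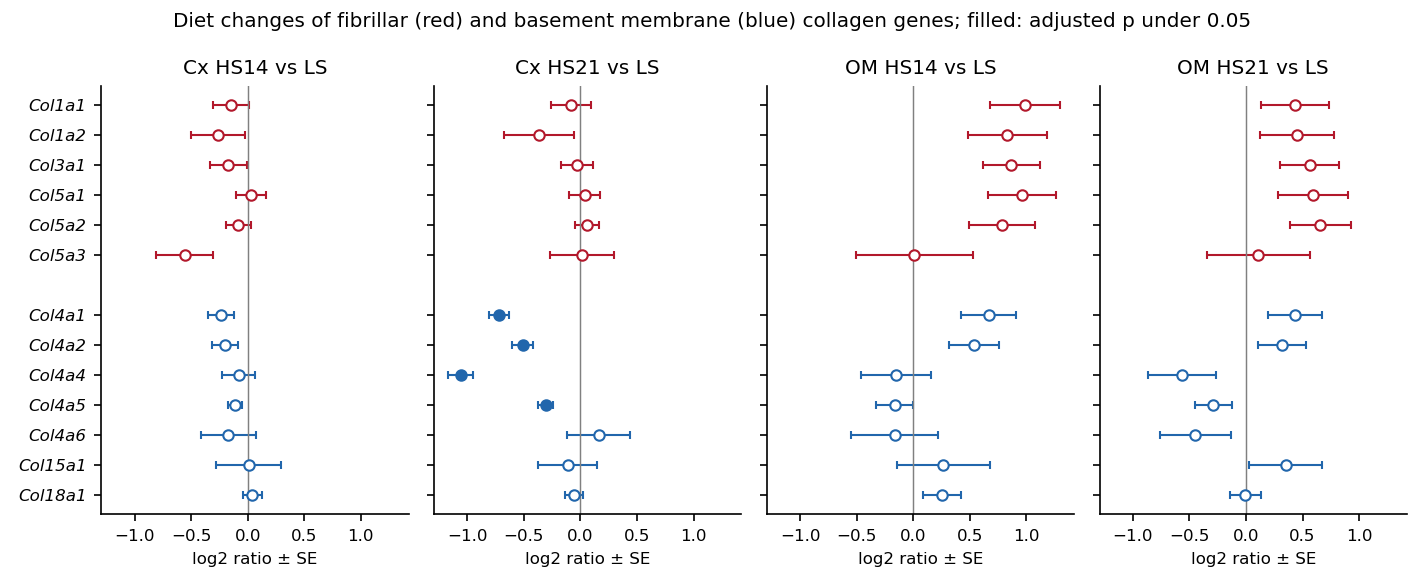
Log2 ratios of HS to LS with SE (x axis) for the 6 fibrillar (red) and 7 basement membrane (blue) collagen genes in the 4 diet comparisons, with filled points for an adjusted *P* under 0.05. The 4 filled points are *Col4a1*, *Col4a2*, *Col4a4* and *Col4a5* in Cx at HS21, and 5 of 6 fibrillar genes lie between 0.78 and 0.99 in OM at HS14 with open points.

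In OM 5 of the 6 fibrillar genes had log2 ratios between 0.78 and 0.99 at HS14, and none passed the test. *Col1a1* measured 68.4, 88.8, 72, 33.8 and 105 CPM in OM LS and 78, 177, 193, 118 and 161 CPM in OM HS14. In 4 of the 5 HS14 libraries the level was above every LS library (log2 ratio 0.99 ± 0.31, adjusted *P* = 0.594 by edgeR). *Col3a1* measured 152, 149, 155, 101 and 248 CPM on LS and 187, 355, 381, 283 and 260 CPM at HS14 (0.87 ± 0.25, adjusted *P* = 0.537). *Col5a1* (ENSRNOG00000008749, chromosome 3, 6430201 to 6578882) measured 49.3, 19.6, 48, 32.9 and 69.5 CPM on LS and 59.9, 76.7, 114, 85.6 and 89.9 CPM at HS14 (0.96 ± 0.30, adjusted *P* = 0.594). *Col1a2* had a log2 ratio of 0.83 ± 0.35, *Col5a2* of 0.78 ± 0.29 and *Col5a3* of 0.01 ± 0.52, which turned to −0.21 without OM LS replicate 2. At an unadjusted *P* under 0.05, 5 of the 6 were above LS, beside 4.28% of all genes. The median of the class was 0.85, beside −0.02 over all genes.

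The type IV genes of OM did not move as one at HS14. *Col4a1* (267 to 674 CPM on LS, 575 to 935 at HS14) had a log2 ratio of 0.67 ± 0.24 and *Col4a2* one of 0.54 ± 0.22. *Col4a4* (459 to 973 CPM on LS, 430 to 1221 at HS14) had −0.15 ± 0.31, *Col4a5* −0.16 ± 0.16 and *Col4a6* −0.16 ± 0.38. None was called. Over the family 0 of 32 tested genes were called by edgeR or DESeq2, beside 0.00694% of all genes higher and 0% lower by edgeR, that is, 1 of 14417 genes. At an unadjusted *P* under 0.05, 11 of the 32 were above and 0 below LS, where 4.28% and 1.45% of all genes were. *Col12a1*, a fibril-associated collagen named after its values were seen, measured 156, 47.4, 154, 122 and 191 CPM on LS and 204, 203, 344, 436 and 771 CPM at HS14 (1.56 ± 0.45, adjusted *P* = 0.528). It was the 1 member whose HS14 libraries were all above LS, beside 1.04% of all genes, and 0 members were all below, beside 0.486%. The 771 CPM of *Col12a1* and the 1221 CPM of *Col4a4* are both from OM HS14 replicate 10. Without that library their log2 ratios were 1.14 and −0.48. With all 30 libraries in one fit, *Col12a1* and *Col5a1* passed the test.

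The HS14 ratios in OM were computed again without OM LS replicate 2, alone or together with OM HS14 replicate 10. Without OM LS replicate 2 they were 1.06 for *Col1a1*, 0.84 for *Col3a1* and 0.77 for *Col5a1*. Without that library and OM HS14 replicate 10 they were 1.02, 0.88 and 0.75, and for *Col12a1* 0.93. Again 0 members passed in either direction, and over all genes 4 were higher and 2 lower. OM LS replicate 5 was the highest LS library of *Col1a1*, *Col3a1* and *Col5a1*. Without it the median log2 ratio of the members was 0.64, beside 0.38 with all libraries. In that fit 0 of 32 members passed, beside 0 of all 14586 genes. Fibroblast markers summed to 96.1 to 155 CPM in OM LS and 187 to 282 CPM in OM HS14, with 0 of 4 tested called by edgeR. At an unadjusted *P* under 0.05, 2 of the 4 were above LS, beside 4.28% of all genes. Leukocyte markers summed to 92.5 to 250 and 298 to 352 CPM, and pericyte and smooth muscle markers to 208 to 362 and 315 to 468 CPM. Their part in the collagen values was not tested.

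**Figure D3:**
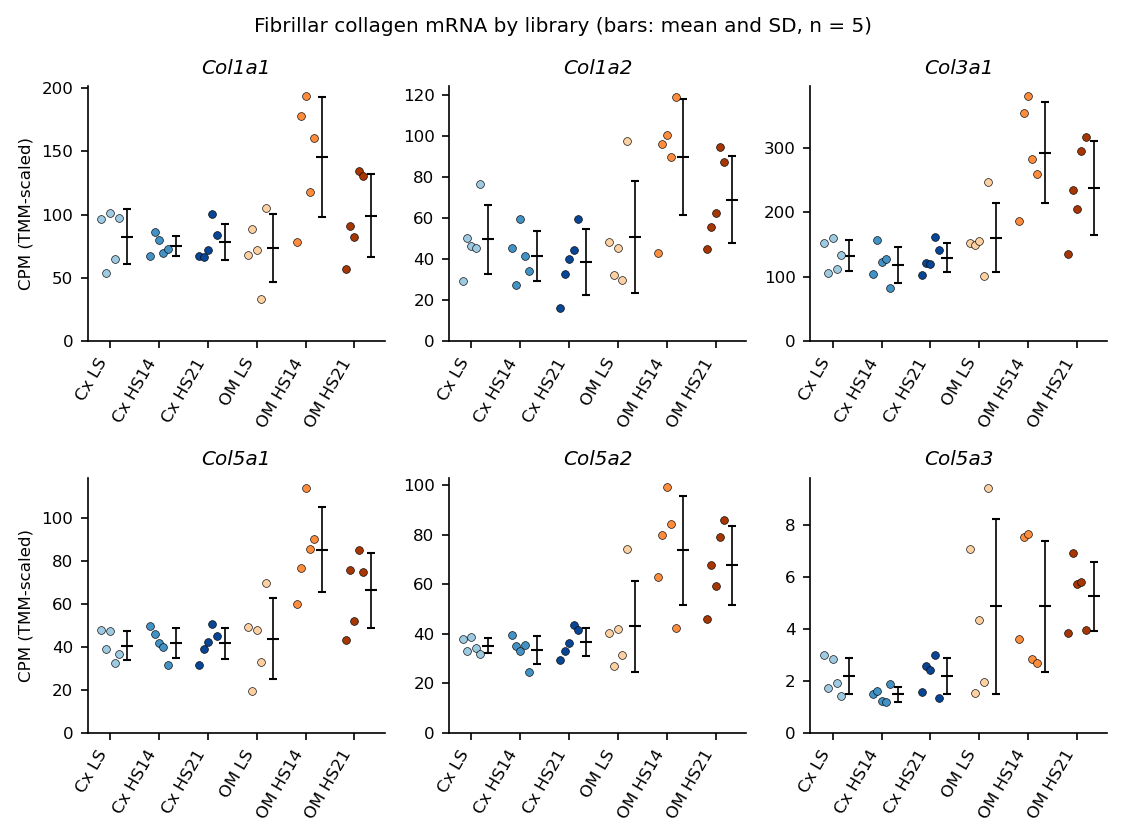
CPM of the 6 fibrillar collagen genes in each of the 30 libraries, by tissue and diet group, with points for libraries and bars for mean and SD (n = 5). The Cx groups overlap in each gene, and in OM HS14 4 of 5 libraries of *Col1a1* lie above every OM LS library, with replicate 6 the lowest in *Col1a2* (43.2 CPM).

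At HS21 in OM no fibrillar gene passed the test. *Col3a1* measured 136, 234, 205, 296 and 317 CPM (0.56 ± 0.26) and *Col1a1* 57.4, 90.8, 82.6, 134 and 130 CPM (0.43 ± 0.30). The lowest of the 5 was replicate 11 in both. *Col4a4* measured 749, 719, 447, 319 and 314 CPM (−0.57 ± 0.30) and *Col4a1* 474, 561, 558, 748 and 756 CPM (0.43 ± 0.24), and both overlapped with LS. Without OM LS replicate 2 the ratios were 0.54 for *Col3a1*, 0.51 for *Col1a1*, −0.70 for *Col4a4* and 0.29 for *Col4a1*. *Col4a2* went from 0.32 to 0.18 without it, and *Col5a3* turned from 0.11 to −0.11. Without OM LS replicate 5 the median log2 ratio of the members was 0.60, beside 0.38 with all libraries. In that fit 0 of 33 members passed, beside 134 higher and 24 lower of all 14713 genes. Of 32 genes tested 0 passed in either direction by edgeR or DESeq2, beside 0.639% of all genes higher and 0.131% lower by edgeR, and 0 of 33 passed without OM LS replicate 2. At an unadjusted *P* under 0.05 the counts were 6 above and 1 below, beside 6.95% and 4.29% of all genes. *Col6a1* measured 35.6, 16, 32.6, 21.1 and 50.3 CPM on LS and 44.5, 44.1, 46.6, 82.3 and 82.4 CPM at HS21 (0.95 ± 0.32, adjusted *P* = 0.238). It passed with all 30 libraries in one fit.

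Whether the diet changes differed between the tissues was tested as an interaction, coded as the OM change minus the Cx change. At HS21 0 of 36 genes passed by edgeR, beside 0.448% of all genes higher and 0.217% lower. At an unadjusted *P* under 0.05 the counts were 2 and 1, beside 6.59% and 8.99% of all genes. DESeq2 called 2 members higher and 0 lower, beside 350 and 206 of all 15194 genes. The smallest *P* was that of *Col4a1* (1.14 ± 0.27, adjusted *P* = 0.0571), followed by *Col4a2* (0.83 ± 0.25, adjusted *P* = 0.127). Against LS their ratios at HS21 were −0.72 and −0.51 in Cx and 0.43 and 0.32 in OM. The call depended on single libraries and on the test. Without OM LS replicate 2, *Col4a1* (1.02, adjusted *P* = 0.0128) and *Col4a2* (0.71, adjusted *P* = 0.0444) were above 0 and *Col9a2* (−1.13, adjusted *P* = 0.0161) below. Over all genes that fit called 729 above 0 and 546 below of 15391, where the fit with all libraries called 68 and 33 of 15194. *Col4a1* also passed without OM LS replicate 5, without OM HS21 replicate 11, by limma on log2(FPKM + 1) and in DESeq2, which called *Col4a2* as well. A fit with the replicate number as a block called 1 member higher and 0 lower, beside 60 and 34 of all 15194 genes. For *Col4a4* the interaction was 0.48 ± 0.33 and did not pass.

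At HS14 0 of 35 interactions passed, beside 0% of all genes in each direction by edgeR, and DESeq2 called 0 of the members. Of the members, 11 were above 0 and 0 below at an unadjusted *P* under 0.05, beside 1.86% and 1.84% of all genes. *Col1a1* had an interaction of 1.10 ± 0.37 and *Col4a1* of 0.87 ± 0.27.

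On the LS diet OM and Cx differed in both directions. Of 33 genes tested, 7 were higher in OM and 7 lower, 21.2% each, beside 21.3% and 19.5% of all genes. Groups did not overlap in 3 members above and 4 below, beside 13.3% and 15.7% of all genes. *Col18a1* (ENSRNOG00000001229, chromosome 20, 12225202 to 12332858), the source of endostatin, measured 181, 170, 223, 207 and 180 CPM in Cx and 448, 349, 463, 358 and 545 CPM in OM. All OM libraries were above all Cx libraries (log2 ratio of OM to Cx 1.16 ± 0.13, adjusted *P* = 9.8e-05). *Col4a4* was lower in OM (459 to 973 against 1244 to 1626 CPM, −0.94 ± 0.19, adjusted *P* = 0.0025), as was *Col4a1* (267 to 674 against 679 to 836 CPM, −0.73 ± 0.21, adjusted *P* = 0.0173). With total counts as library sizes *Col4a1* did not pass. *Col4a6* was higher in OM (1.05 ± 0.33, adjusted *P* = 0.026), with overlapping groups, and was called in 4 of 10 fits that left out 1 library each. *Col4a2* (−0.30 ± 0.18), *Col4a5* (0.36 ± 0.14) and *Col15a1* (0.56 ± 0.38) did not pass. Without OM LS replicate 2 the ratios were 1.22 for *Col18a1*, −0.82 for *Col4a4*, −0.60 for *Col4a1* and 1.23 for *Col4a6*, and all 4 passed. *Col4a5* also passed then (0.46, adjusted *P* = 0.00141 by edgeR). The 6 podocyte markers were all lower in OM by edgeR, with summed levels of 134 to 313 CPM against 670 to 760 CPM in Cx. Of the 7 proximal tubule markers 6 were lower by edgeR, and so were all 3 cortical tubule markers. DESeq2 called 3 of the 6 podocyte, 1 of the 7 proximal tubule and 0 of the 3 cortical tubule markers lower. Both thick ascending limb markers were higher by either test. The part of cell makeup in the type IV values was not tested.

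None of the 6 fibrillar genes differed by tissue at the threshold by edgeR (median log2 ratio 0.19), 1 was higher in OM at an unadjusted *P* under 0.05 and by DESeq2, and 0 were lower. Over all 14295 genes, 3704 were higher and 3311 lower at that unadjusted *P*, and DESeq2 called 3361 and 3073. *Col1a1* had a ratio of −0.18 ± 0.28, *Col3a1* of 0.27 ± 0.21 and *Col5a3* of 1.15 ± 0.48 (adjusted *P* = 0.0787). *Col5a3* passed without OM LS replicate 2 (1.36, adjusted *P* = 0.0189).

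The widest tissue ratios of the family were in minor collagens. *Col9a1*, a chain of the cartilage fibril-associated type IX, measured 14.1, 13.6, 13.1, 10.2 and 9.31 CPM in Cx LS and 0.246, 1.37, 0.382, 0.254 and 0.203 CPM in OM LS. The high OM value is replicate 2, the library with the high cortical tubule markers. The log2 ratio was −4.69 ± 0.45 (adjusted *P* = 3.17e-05), and −5.45 without that library. Its sister chain *Col9a2* had the other sign, with 1.54 to 2.35 CPM in Cx and 2.91 to 8.81 CPM in OM (1.62 ± 0.28, adjusted *P* = 0.00114). *Col17a1*, a transmembrane collagen, measured 0.662 to 3.85 CPM in Cx and 12.7, 15.3, 29.3, 10 and 7.45 CPM in OM (2.93 ± 0.53, adjusted *P* = 0.00149). *Col27a1*, a fibril-forming collagen of cartilage, was lower in OM, with 27.5, 75.3, 40.7, 29.3 and 39.4 CPM against 103 to 173 CPM (−1.69 ± 0.27, adjusted *P* = 0.000741).

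A further 6 collagens passed the tissue test with overlapping groups. *Col7a1* (1.70 ± 0.46), *Col11a2* (1.35 ± 0.31) and *Col14a1* (1.87 ± 0.62) were higher in OM. *Col6a1* (−0.81 ± 0.25), *Col6a5* (−1.13 ± 0.31) and *Col6a6* (−1.47 ± 0.47) were lower, with adjusted *P* of all 6 from 0.00638 to 0.0341. Of these, *Col14a1* was called in 4, *Col6a6* in 5 and *Col6a1* in 7 of 10 fits that left out 1 library each. With total counts the members were 10 higher and 5 lower, and all genes 5546 higher and 1842 lower, where TMM gave 3051 and 2794. Without OM LS replicate 2, 9 members were higher and 10 lower, and all genes 3768 and 3790 of 14561. *Col14a1* did not pass then (1.13, adjusted *P* = 0.0611 by edgeR), and besides *Col4a5* and *Col5a3* the genes *Col16a1*, *Col2a1*, *Col13a1* and *Col24a1* passed. Without OM LS replicate 5 instead, 6 members were higher and 10 lower, and all genes 3038 and 2935 of 14448.

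**Figure D4:**
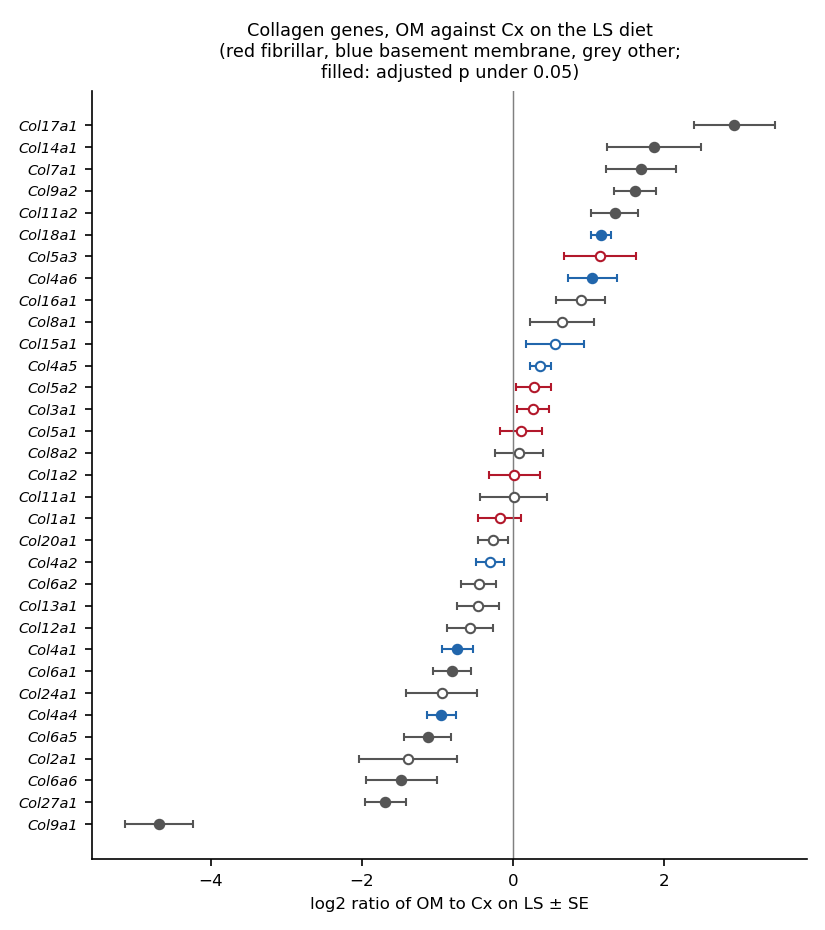
Log2 ratio of OM to Cx on the LS diet with SE (x axis) for the 33 collagen genes tested, ordered by ratio, with red for fibrillar, blue for basement membrane and grey for other collagens and filled points for an adjusted *P* under 0.05. *Col9a1* lies lowest at −4.69 and *Col17a1* highest at 2.93, and the 6 red points are open.

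The balance of the classes was described per library, with no test, since the members were chosen with results known. Fibrillar minus basement membrane level, as the difference of the mean log2 CPM of the 2 classes, was −1.60 ± 0.11 in Cx LS, −1.68 ± 0.15 in Cx HS14 and −1.30 ± 0.32 in Cx HS21. In OM it was −1.55 ± 0.28 on LS, −0.94 ± 0.33 at HS14 and −1.01 ± 0.41 at HS21 (SD, n = 5). The ranges of LS and HS overlapped in both tissues. On the FPKM scale the summed level of the basement membrane genes was 382 ± 22 in Cx LS and 240 ± 8.9 in Cx HS21, with no overlap, and that of the fibrillar genes was 67.4 ± 9.9 and 63.8 ± 13. In OM the basement membrane sum was 311 ± 79 on LS and 385 ± 58 at HS14, and the fibrillar sum 73.5 ± 27 and 135 ± 33. The fibrillar share of all collagen FPKM was 12.1 ± 1.4% in Cx LS, 15 ± 1.3% in Cx HS21, 16.1 ± 3% in OM LS and 21.1 ± 3.2% in OM HS14. This share counts types I, III and V only. Of the fibril-forming genes outside it, *Col27a1* had 18.4 to 30.9 FPKM in Cx LS and 4.85 to 13.3 FPKM in OM LS.

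**Figure D5:**
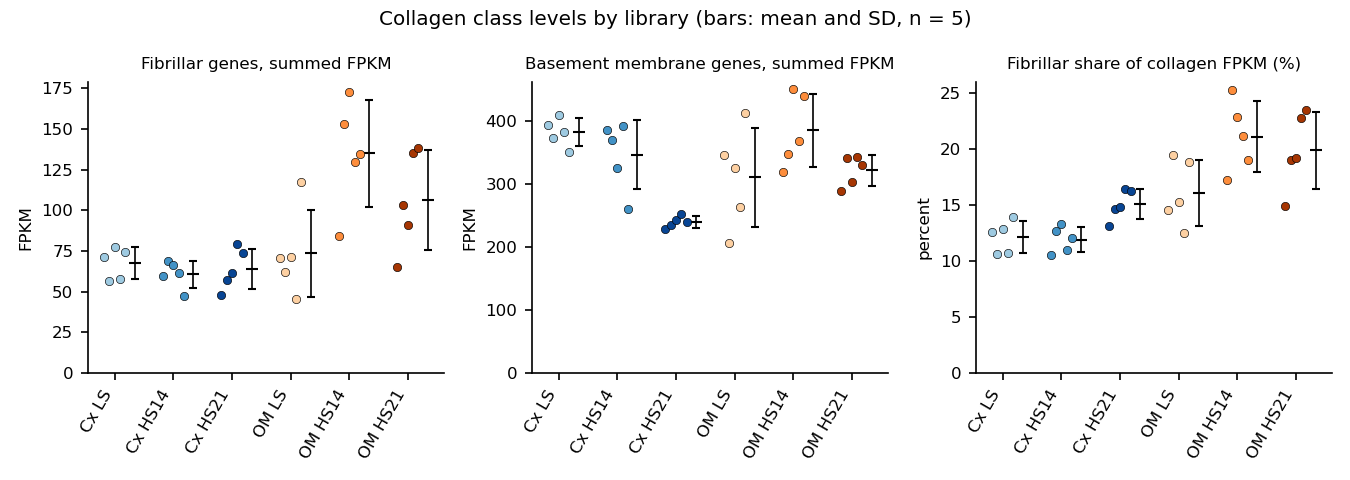
Summed FPKM of the 6 fibrillar genes and of the 7 basement membrane genes, and the fibrillar share of the FPKM of all 36 collagen genes (percent), for each of the 30 libraries by group, with bars for mean and SD (n = 5). In Cx HS21 the basement membrane sum lies between 229 and 253 FPKM, below all Cx LS libraries (351 FPKM or more), and in OM HS14 the fibrillar sum reaches 173 FPKM.

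Chain ratios within a type also differed between groups. The FPKM ratio of *Col4a1* to *Col4a2*, whose chains join in one molecule, was 1.59 ± 0.072 in Cx LS, 1.56 ± 0.05 in Cx HS14 and 1.38 ± 0.06 in Cx HS21. The HS21 libraries (1.3 to 1.44) were below all LS libraries (1.52 to 1.69). In OM it was 1.17 ± 0.061 on LS, 1.29 ± 0.061 at HS14 and 1.28 ± 0.086 at HS21. The ratio of *Col4a4* to *Col4a5* was 5.95 ± 0.42 in Cx LS, 3.53 ± 0.41 in Cx HS21 and 2.38 ± 0.17 in OM LS, and the libraries of these 3 groups did not overlap. In Cx HS14 it was 6.09 ± 1.4, overlapping with Cx LS. In OM it was 2.43 ± 1.1 at HS14 and 1.93 ± 0.59 at HS21, both overlapping with OM LS. The OM HS14 libraries (1.65 to 4.42) also overlapped with Cx HS21. The ratio of *Col1a1* to *Col1a2* was 1.42 ± 0.69 in Cx LS and 1.8 ± 0.84 in Cx HS21, with wide overlap. The absolute ratio depends on the annotated gene lengths, which are the same in all groups.

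Of 30 tested genes that build, secrete and crosslink collagen, 11 were higher and 4 lower in Cx at HS21, beside 18.9% and 20.5% of all genes (median log2 ratio 0.24, beside 0.00461 over all genes). *Pcolce*, an enhancer of procollagen cleavage, rose by 0.65 ± 0.10 (adjusted *P* = 0.000473) and the prolyl hydroxylase family gene *P3h3* by 0.42 ± 0.07 (adjusted *P* = 0.000488). *Mia2*, which serves the export of large cargo from the endoplasmic reticulum, fell by 0.96 ± 0.10 (adjusted *P* = 4.11e-05) and the collagen glycosyltransferase family gene *Colgalt2* by 0.62 ± 0.13 (adjusted *P* = 0.00238). *Lox*, the crosslinking lysyl oxidase, rose by 1.01 ± 0.28 (adjusted *P* = 0.0132), and *Serpinh1*, the collagen chaperone, had −0.07 ± 0.10. In OM at HS14, 0 of the 30 passed by edgeR. At an unadjusted *P* under 0.05, 9 were above LS, beside 4.28% of all genes. DESeq2 called 3 higher, beside 90 of all 14417 genes. *Lox* had 1.44 ± 0.35 there (adjusted *P* = 0.405 by edgeR).

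Other lists of the pathway are given by their counts in Cx at HS21, beside 18.9% of all genes higher and 20.5% lower. Of 20 genes of transforming growth factor beta signalling, 6 were higher and 5 lower. The ligand gene *Tgfb1* rose by 0.87 ± 0.14 (adjusted *P* = 0.000511), its accessory receptor *Tgfbr3* by 0.42 ± 0.08 and the latency binding protein gene *Ltbp3* by 0.54 ± 0.10, and the inhibitor gene *Smad7* fell by 0.31 ± 0.05. *Tgfb1* did not pass in OM (0.71 ± 0.25 at HS14 and 0.83 ± 0.22 at HS21, adjusted *P* = 0.687 and 0.122). Of 14 interstitial matrix partners, 4 were higher by edgeR and 0 lower, with 1 lower at an unadjusted *P* under 0.05 and by DESeq2. They were *Emilin1* (0.47 ± 0.08), *Fbln1* (1.37 ± 0.27), *Dcn* (0.76 ± 0.23) and *Tnc* (1.74 ± 0.61), and the fibronectin gene *Fn1* had 0.18 ± 0.15. In OM at HS14, 7 of 14 tested were above LS at an unadjusted *P* under 0.05, beside 4.28% of all genes. The edgeR test called 0 of them and DESeq2 called 2 higher, the latter beside 90 of all 14417 genes.

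Of 18 basement membrane partners in Cx at HS21, 5 were higher and 3 lower, beside the same 18.9% and 20.5%. The tubular antigen gene *Tinag* (−0.88 ± 0.09) and the laminin gene *Lama1* (−1.15 ± 0.14) fell, and the glomerular laminin gene *Lamb2* (0.42 ± 0.06) and *Tinagl1* (0.88 ± 0.16) rose. Of 7 collagen receptor genes tested, *Itgb1* was higher (0.20 ± 0.07, adjusted *P* = 0.0391) and 0 were lower by edgeR, by DESeq2 or at an unadjusted *P* under 0.05. On LS, OM against Cx, 10 of the 18 basement membrane partners were higher and 6 lower, and 4 of the 7 receptors were lower, beside 21.3% of all genes higher and 19.5% lower.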

How the data were processed

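mRNA of 15 Cx and 15 OM samples was sequenced after poly(A) selection, without strand information. Per the study's methods the authors aligned read pairs to Ensembl Rnor_6.0 with HISAT2 2.0.5 and counted them per gene with featureCounts 1.5.0-p3. The deposited counts are raw whole numbers. The FPKM values were made by the authors from these counts, the gene length and a scaled library size. The gene length in bases is the deposited value. Columns with the authors' own group means, fold changes and p-values were not used.

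Counts were tested with edgeR 4.0.16 in R 4.3.3 (filterByExpr by group, TMM, glmQLFit and glmQLFTest), with Benjamini-Hochberg adjusted *P* across the genes of each fit and a threshold of 0.05. Each comparison used its own 10 libraries and the interactions 20. Log2 levels used a prior count of 2. Between 32 and 36 of the 36 members passed the filter. It keeps genes high in one group only, so counts over tested members are descriptions. The script was tested on simulated data. Alternatives were DESeq2 1.42.0, DESeq2's size factors, total counts, no filter, limma 3.58.1 on log2(FPKM + 1), all 30 libraries in one fit, a replicate block and leaving out each library. Leaving out OM LS replicate 2 and OM HS14 replicate 10 together was added after seeing the data. RefSeq promoters were matched by symbol for 29 of 36 members (not *Col1a1*, *Col2a1*, *Col3a1*, *Col6a2*, *Col12a1*, *Col14a1* and *Col22a1*).

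Members and gene lists were chosen with earlier results of these data known. Genes named were all fibrillar and basement membrane members, other members past the threshold in any comparison or among the 5 highest in FPKM, and of each pathway list up to 4 with the smallest *P* in Cx at HS21 plus *Tgfb1*, *Serpinh1*, *Lox* and *Fn1*. Within a group the labels number the libraries as separate samples, and *P* values measure the spread between them. Total counts ran from 5408126 to 21842843 per library, and the shallowest library measures low genes least precisely.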

Additional observations from a re-analysis of the deposited data

Results flagged for a closer look

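Libraries that lay far from the other 4 of their group by Dixon's criterion were found in 5 of 156 groups of 5 (26 genes by 6 groups), where chance gives about 1 in 20 groups. *Col4a6* was lowest in Cx HS21 replicate 15 at 1.5 CPM, with 3.06 to 3.5 CPM in the others. *Col20a1* was highest in OM LS replicate 5 at 1.9 CPM (others 1.08 to 1.23). *Col9a1* was highest in OM LS replicate 2 at 1.37 CPM (others 0.203 to 0.382), the library whose cortical tubule markers summed to 4806 CPM. *Col1a2* was lowest in OM HS14 replicate 6 at 43.2 CPM (others 89.8 to 119). *Col24a1* had 0 counts in OM HS14 replicate 10, the library with 5408126 counts in all, and 1.37 to 3.19 CPM in the others.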

How the results depend on the processing

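In Cx at HS21, *Col4a1* and *Col4a4* were called lower in all 6 alternatives and in 10 of 10 fits without 1 library, and *Col4a2* and *Col4a5* in 5 of 6 alternatives and 10 of 10 fits. Counts of collagen genes that moved are as follows. With all 30 libraries in one fit, Cx HS21 against LS had 1 higher and 2 lower, Cx HS21 against HS14 had 0 higher and 1 lower, OM HS14 had 2 higher and OM HS21 had 1 higher. With total counts, Cx HS21 against LS had 7 higher and Cx HS21 against HS14 had 1 lower. Total counts shift the median log2 ratio of all genes to 0.13 in both of these and to 0.27 for OM against Cx, and changes are read relative to it. The interaction at HS21 had 2 higher with DESeq2, 1 with limma on log2(FPKM + 1) and 1 with the replicate block. Over all 15194 genes these fits called 350, 137 and 60 higher. Same-numbered Cx and OM libraries correlated at −0.07 to 0.44 in their deviations, over 0.1 in 10 of 15, and 13 of 15 matched best with their own number. The HS21 pairs correlated at 0.24 to 0.44. Both tissues came from the same kidneys. The main fits did not use the numbers as pairs, so the tissue and interaction tests treated libraries of the same kidneys as independent. With the replicate block the tissue comparison had 6 higher and 6 lower, and the interaction at HS14 had 0 and 0. Leaving out 1 library at a time gave 0 higher and 0 to 1 lower in Cx at HS14 (the 1 without HS14 replicate 7, 9 or 10), 3 to 7 higher and 4 to 6 lower in Cx at HS21 (7 and 6 without HS21 replicate 11), 1 to 3 and 1 to 5 for HS21 against HS14, 0 in OM at HS14 and at HS21, 5 to 9 and 5 to 10 for OM against Cx, 0 in the interaction at HS14, and 0 to 2 and 0 to 1 in that at HS21. *Col11a1* reversed for OM against Cx without OM LS replicate 5, to −0.66 (adjusted *P* = 0.0467 by edgeR) from 0.01, and the other fits without 1 library reached 0.20. Fibrillar minus basement membrane level on log2(FPKM + 1) was −1.41 in Cx LS and −1.42 in Cx HS14. With *Col1a1*, *Col1a2* and *Col3a1* against *Col4a1* and *Col4a2* alone it was −2.71, −2.65 and −2.26 in Cx LS, HS14 and HS21 and −2.15, −1.87 and −2.05 in OM. Its means without 1 library ranged from −1.63 to −1.56, −1.71 to −1.63, −1.38 to −1.18, −1.63 to −1.44, −1.06 to −0.86 and −1.11 to −0.86 in the same order. The causes of these shifts were not tested. Depth limits the 13 genes under 1 FPKM most, and OM HS14 replicate 10, whose mapping rate and exon share were also the lowest per the study. The exon share that the study lists was lower in every OM LS library than in the other OM HS14 libraries and in every Cx library. Library quality thus differed along the OM HS14 and the tissue comparison, and its part in the values was not tested.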

Other observations

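Rows next to the family that the name or the annotation left out were read after their values were seen. *LOC100911572* (ENSRNOG00000015365, Rnor_6.0 chromosome 9, 88357556 to 88485830, plus strand) lies beside *Col4a4* on the opposite strand. RefSeq describes this symbol as a collagen alpha-3(IV) chain-like gene. It measured 317 ± 63 CPM in Cx LS, 307 ± 66 in Cx HS14 and 169 ± 8.6 in Cx HS21 (SD, n = 5). At HS21 it was lower than on LS, with no overlap (log2 ratio −0.91 ± 0.12, adjusted *P* = 0.000242 by edgeR), and lower than at HS14 (−0.86 ± 0.13, adjusted *P* = 0.00487). For *Col4a4* these ratios were −1.06 ± 0.11 and −0.98 ± 0.16. A second row with the same symbol had a mean of 0.0531 CPM or less in every group. *Col6a3*, the third chain of the main type VI collagen, measured 146 ± 26 CPM in Cx LS and 67.5 ± 36 in OM LS, lower in OM with no overlap (−1.12 ± 0.31, adjusted *P* = 0.0163). It had 141 ± 39 CPM in OM HS14 (log2 ratio to LS 1.07 ± 0.34, adjusted *P* = 0.594), as its partner *Col6a1* had 0.99 ± 0.30.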
